A study of Drosophila melanogaster with 12 samples.

Results

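Among 16637 transcripts measured in whole virgin Drosophila melanogaster, 53 (0.319%) separated flies evolved under monogamy from flies evolved under polygamy in males and in females alike. A transcript was taken when, in each sex, all 3 monogamy values lay on one side of all 3 polygamy values, in the same direction, and the regime means differed by at least 0.8 on the log2 scale. Of the 53, 34 (0.204% of all transcripts) were higher under monogamy and 19 (0.114%) were lower. The 53 were chosen by these regime differences, on the deposited log2 values of all 12 arrays, so the differences are described here with no test and support nothing by themselves.

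Each regime was represented by 3 independent populations, kept under monogamy or polygamy for 65 generations on standard cornmeal medium, and all samples carry the same label for genetic background, IV. Total RNA of whole flies aged 4 days, unmated in every group, was labelled with Cy3 and hybridised to NimbleGen arrays. Each population gave 1 male and 1 female array, which made 4 groups of 3: monogamy males, polygamy males, monogamy females and polygamy females. A population is therefore the replicate, the spread between populations and between single arrays cannot be told apart, and the number of flies behind a sample is not given in the sources used here.

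In a promiscuous fly such as Drosophila melanogaster, males compete for mates and for fertilisations, and seminal proteins passed at mating change the behaviour and physiology of the female. Enforced monogamy removes rivalry between males and choice among mates and aligns the interests of the partners, whereas polygamy keeps both. A regime difference that runs the same way in both sexes is distinct from sex-biased expression, the term for transcripts whose level is higher in one sex, and the 2 properties are given separately below.

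The transcripts carry FlyBase transcript identifiers, which name 1 transcript of a gene each. Gene symbols could be found for 44 of the 16637 identifiers in RefSeq's gene table (assembly Release 6), and for 0 of the 53, so that no gene, function, position or sequence is given for them. For the same reason, none of the 105 genes in 14 lists of tissue markers and pathways could be paired with a transcript, and the tissue and sex labels were not checked against marker genes. In whole flies, fewer cells of a type and less RNA per cell cannot be told apart. Identifiers below were taken by size of difference, up to 2 in each direction and sex class, except where they are said to have been chosen after their values were seen.

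Separation of the regimes was much more frequent in females than in males. In males, all monogamy values lay above all polygamy values for 684 transcripts (4.11%) and below them for 606 (3.64%). In females the numbers were 3857 (23.2%) and 2498 (15.0%). With 3 values against 3, some transcripts separate with no regime effect, and the shares in either sex were not tested against that. The female arrays include polygamy female 3, which stood apart from the other females (mean correlation 0.733). A test of the regime difference between the sexes, given at the end, called 0 transcripts. Separation in both sexes was found for 187 transcripts with monogamy above (1.12%) and 139 with monogamy below (0.835%), and in opposite directions for 37 (0.222%). The required size of 0.8 reduced the 326 of the same direction to the 53, and left 1 of the 37. The size without the separation was met by 1044 transcripts that ran the same way in both sexes, of which the 53 were 5.08%, so that most transcripts with differences of this size overlapped between regimes in at least 1 sex.

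**Figure D1:**
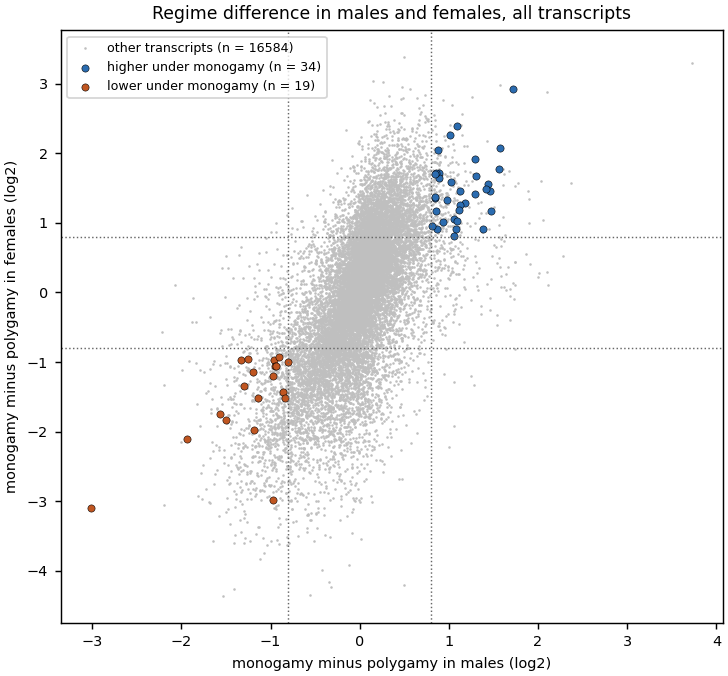
Difference of the regime means (monogamy minus polygamy, log2) in males on the x axis and in females on the y axis for every transcript, with the 34 higher in blue, the 19 lower in orange, and dotted lines at 0.8 and -0.8. Grey points beyond the dotted lines in the same corners are transcripts whose regimes overlapped in at least 1 sex, and the orange point at -3.02 and -3.10 is FBtr0112533.

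Sizes ran from just above the required minimum to an 8.60-fold difference. The 34 higher transcripts differed by 0.81 to 1.71 in males (median 1.08) and by 0.81 to 2.92 in females (median 1.44). The 19 lower transcripts differed by -3.02 to -0.81 in males (median -1.14) and by -3.10 to -0.93 in females (median -1.35). Over all transcripts the median difference was 0.0161 in males and 0.0554 in females, and the median absolute difference was 0.228 and 0.667. Females held the larger difference in size for 28 of the 34 and for 16 of the 19, against 82.9% of all transcripts. Without polygamy female 3 the numbers were 12 and 8, against 75.5%. The rule asks for a male difference of at least 0.8, against a median absolute difference of 0.228, and so restricts this comparison.

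Many of the 53 stood close to the boundary of the rule. The smaller of the differences in the 2 sexes was 0.8 to 0.9 for 14 transcripts, and 25 more transcripts that separated the regimes in both sexes missed the rule at 0.7 to 0.8. Just inside lay FBtr0071609 at -0.8055 in males and -0.9978 in females and FBtr0072626 at 0.81 and 0.96. Just outside lay FBtr0070888 at 0.7994 and 1.46 and FBtr0078590 at 0.77 and 1.16. Those just inside and just outside were named after their values were seen, as the nearest to the minimum. A difference of at least 1 in both sexes was held by 19 higher and 8 lower transcripts, at least 1.5 by 3 and 4, and at least 2 by 0 and 1.

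The empty interval between the regimes was narrow for most of the 53. Between the lowest value of the higher regime and the highest value of the lower regime, the gap had a median of 0.23 in males and 0.32 in females among the 34, and of 0.24 and 0.30 among the 19. It was under 0.1 for 16 of the 53 in males and for 7 in females. A gap of at least 0.5 in both sexes was found for 3 transcripts: FBtr0112533, FBtr0114056 and FBtr0075099. The gap exceeded the widest range within a regime in both sexes for 1 transcript, FBtr0112533.

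FBtr0112533 was the lower transcript with the largest difference. In males it stood at 8.67, 8.68 and 9.31 in the monogamy populations 1 to 3 and at 12.21, 12.55 and 10.95 in the polygamy populations 1 to 3. In females the values were 8.72, 8.25 and 9.50 under monogamy and 12.00, 11.75 and 12.03 under polygamy. Both sexes thus shared 1 level per regime, with every polygamy array well above every monogamy array. The regime means were 8.89 ± 0.37 and 11.90 ± 0.84 in males and 8.82 ± 0.63 and 11.93 ± 0.15 in females (SD, n = 3 each), a difference of -3.02 and -3.10. On the linear scale the level was 8.10-fold lower under monogamy in males and 8.60-fold lower in females.

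The gap between the regimes of FBtr0112533 was 1.65 in males, against a widest range within a regime of 1.59, and 2.25 in females, against 1.25. Its male and female levels were alike, at 10.40 ± 1.75 and 10.38 ± 1.75 (SD, n = 6 each), and the sex difference of 0.02 (SE 0.31) did not pass the test described below (limma, adjusted p = 0.962). Over 11 alternatives of normalization, floor or left-out array, its regime difference stayed between -3.49 and -2.70 in males and between -3.44 and -2.82 in females. By the smaller of the differences in both sexes it ranked 2 among all transcripts of 1 direction. The transcript with a larger one, FBtr0082093, named after its values were seen, differed by 3.73 and 3.30 but overlapped in females, where polygamy female 2 stood at 10.51 and monogamy female 2 at 10.06.

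FBtr0070831 was the next of the lower transcripts. In males it stood at 6.80, 7.89 and 9.52 under monogamy and at 10.21, 10.26 and 9.55 under polygamy, a difference of -1.94. In females it stood at 7.03, 8.19 and 8.30 under monogamy and at 10.28, 8.89 and 10.69 under polygamy, a difference of -2.11. The male groups met within 0.03, at population 3 of each regime, while monogamy population 1 was the lowest array in both sexes. Its within-group SD in monogamy males was 1.37, so that the separation in males rested on a narrow gap between spread values.

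FBtr0114056 had the largest difference of the higher transcripts. In males it stood at 10.71, 10.41 and 9.09 under monogamy and at 8.15, 8.52 and 8.40 under polygamy, a difference of 1.71 between 10.07 ± 0.86 and 8.36 ± 0.19 (SD, n = 3 each). In females it stood at 11.24, 10.46 and 10.68 under monogamy and at 9.23, 9.79 and 4.61 under polygamy, a difference of 2.92 between 10.80 ± 0.40 and 7.88 ± 2.84. The groups did not overlap, but the size in females rested on polygamy female 3, whose value lay below the 5th percentile of that array (5.42). Without it the female difference was 1.29.

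FBtr0084106 was more even among the arrays. Males stood at 11.26, 11.17 and 10.19 under monogamy and at 9.12, 9.87 and 8.90 under polygamy, a difference of 1.57. Females stood at 10.96, 10.76 and 10.37 under monogamy and at 8.92, 9.02 and 7.92 under polygamy, a difference of 2.08. Every monogamy female lay at least 1.35 above every polygamy female, which was the widest female gap of the 34. The differences correspond to 2.97-fold in males and 4.22-fold in females. FBtr0113154, named after its values were seen, was the third higher transcript with at least 1.5 in both sexes (1.56 and 1.78), and FBtr0080783, likewise, the third of the lower ones (-1.56 and -1.75).

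**Figure D2:**
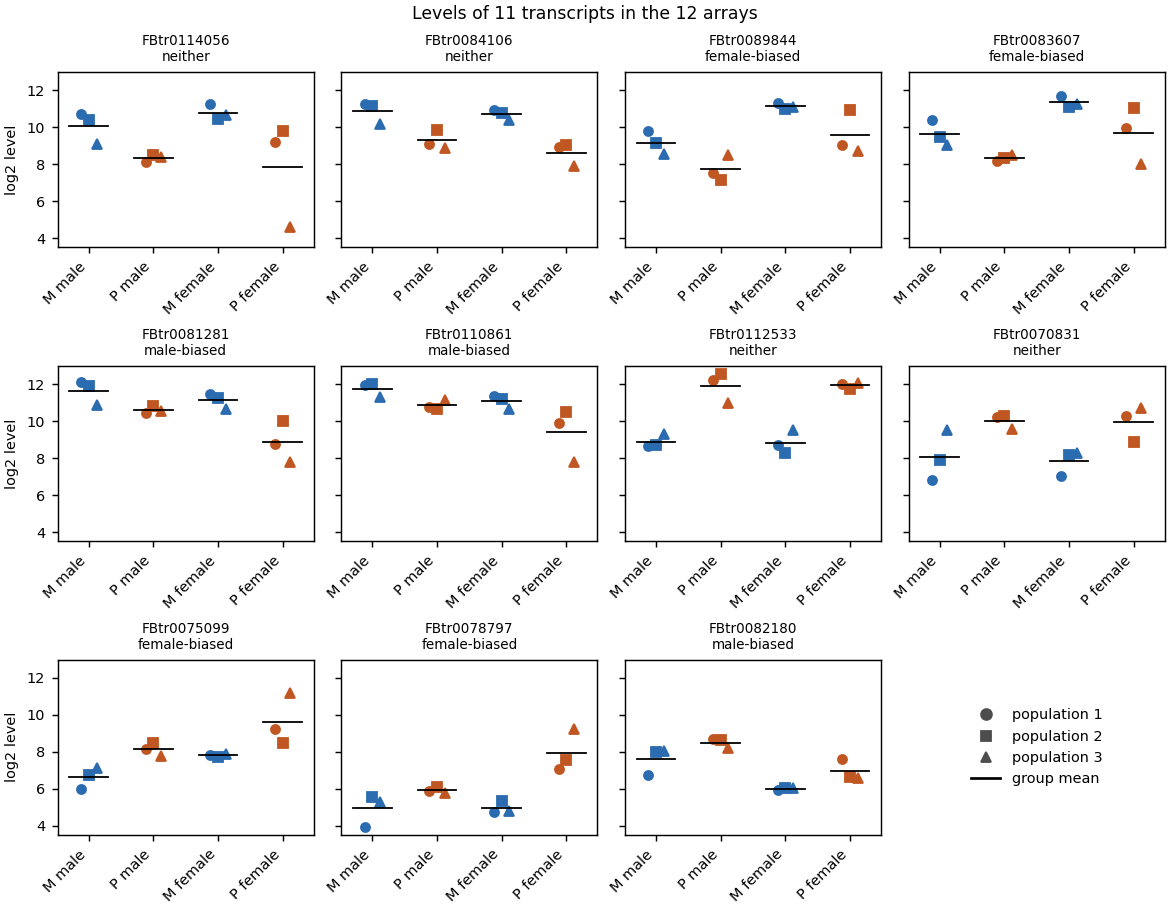
Log2 level of 11 of the 53 transcripts in the 4 groups (M monogamy, P polygamy), with circles, squares and triangles for populations 1, 2 and 3, a line for the mean of each group, and the sex class under each identifier. FBtr0112533 shows the widest space between regimes in both sexes, and the triangle at 4.61 is polygamy female 3 in FBtr0114056.

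Populations of a regime did not contribute alike. Across the 34 higher transcripts, the median level in males was 10.12, 9.76 and 9.10 in monogamy populations 1, 2 and 3 and 8.29, 8.56 and 8.50 in the polygamy populations. In females it was 10.27, 9.70 and 9.63 under monogamy and 8.80, 9.08 and 7.76 under polygamy. Across the 19 lower transcripts the male medians were 6.80, 7.89 and 8.53 under monogamy and 9.34, 9.17 and 9.24 under polygamy. Female medians of the 19 were 7.67, 8.25 and 8.30 under monogamy and 9.45, 8.89 and 10.33 under polygamy. Monogamy population 1 thus lay farthest from polygamy in both sexes and both directions, monogamy male 3 lay nearest to polygamy among males, and polygamy female 3 lay farthest from monogamy among females.

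**Figure D3:**
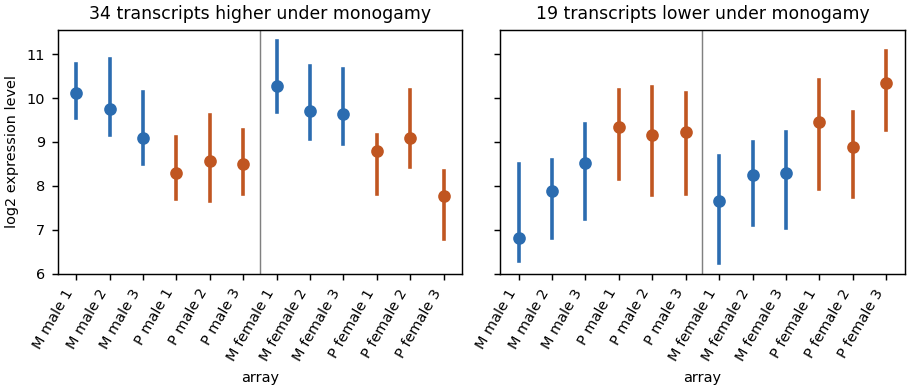
Median log2 level (points) and interquartile range over transcripts (bars) on each array, for the 34 transcripts higher under monogamy (left) and the 19 lower (right), with monogamy (M) in blue and polygamy (P) in orange. Among males the medians of the 34 are 10.12, 9.76 and 9.10 under monogamy and lie within 8.29 to 8.56 under polygamy.

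Counts over single transcripts show the same order. Monogamy male 1 was the highest of the 3 monogamy males for 27 of the 34 and the lowest for 15 of the 19, while over all transcripts it was the highest for 47.1% and the lowest for 38.5%. Monogamy female 1 was the highest for 33 of the 34 and the lowest for 16 of the 19, against 45.8% and 34.6% over all transcripts. The same population was extreme in this way in both sexes for 26 of the 34 and for 13 of the 19, against 32.4% and 24.0%. Monogamy male 3 was the nearest to polygamy for 49 of the 53. It was the lowest monogamy male for 32 of the 34 and the highest for 17 of the 19, against 51.5% and 33.3% over all transcripts. The rule used the values behind these counts and so restricts the comparison with all transcripts.

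FBtr0083919, chosen after its values were seen, shows the distance of monogamy population 1 from the others of its regime. It stood at 10.10 in monogamy male 1 and at 11.00 in monogamy female 1, and at 7.53 and 7.98 in the other monogamy males and 8.46 and 8.44 in the other monogamy females. Polygamy males had 7.20, 7.47 and 6.68, and polygamy females had 8.19, 8.04 and 7.22. The difference of 1.42 in males and 1.48 in females thus came mainly from 1 population, which gave an array in each sex.

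Polygamy female 3 was the farthest from monogamy for 41 of the 53, and polygamy female 2 the nearest for 41. Polygamy female 3 was the lowest polygamy female for 26 of the 34 and the highest for 15 of the 19, against 44.3% each over all transcripts. Polygamy female 2 was the highest for 25 of the 34 and the lowest for 16 of the 19, against 35.0% and 34.3%. These counts also come from values the rule used. On polygamy female 3 the 19 lower transcripts had their highest value of all 12 arrays in 10 cases, and the 34 higher transcripts their lowest in 19. The same shares over all transcripts are not given here, so this is no result about the 53. That array stood apart over all transcripts as well, with a mean correlation of 0.733 with the other females, against 0.894 to 0.924 for the rest, and with a 5th percentile of 5.42, against 4.30 to 4.43. Monogamy male 1 had the lowest such correlation among males, 0.925 against 0.958 to 0.969. What part the differences of these arrays have in the result was not tested beyond leaving them out.

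Without monogamy male 1, 27 of the 53 kept a difference of at least 0.8 in both sexes (18 higher and 9 lower), and the median male difference went to 0.833 for the 34 and to -0.789 for the 19. Without polygamy female 3, 40 kept it (26 and 14), with female medians of 1.08 and -1.01. Leaving out both arrays of monogamy population 1 left 24, and leaving out monogamy male 1 together with polygamy female 3 left 21. Without both arrays of population 1 and polygamy female 3, 15 kept it (10 higher and 5 lower). Every other single array left 44 or more. When the rule was applied afresh to 11 arrays, the number was 31 without monogamy male 1, 933 without monogamy male 3, 557 without polygamy male 2, 112 without polygamy male 3 and 129 without polygamy female 2, and 46 to 75 without any 1 of the other 7. A group of 2 is separated more easily than a group of 3.

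**Figure D4:**
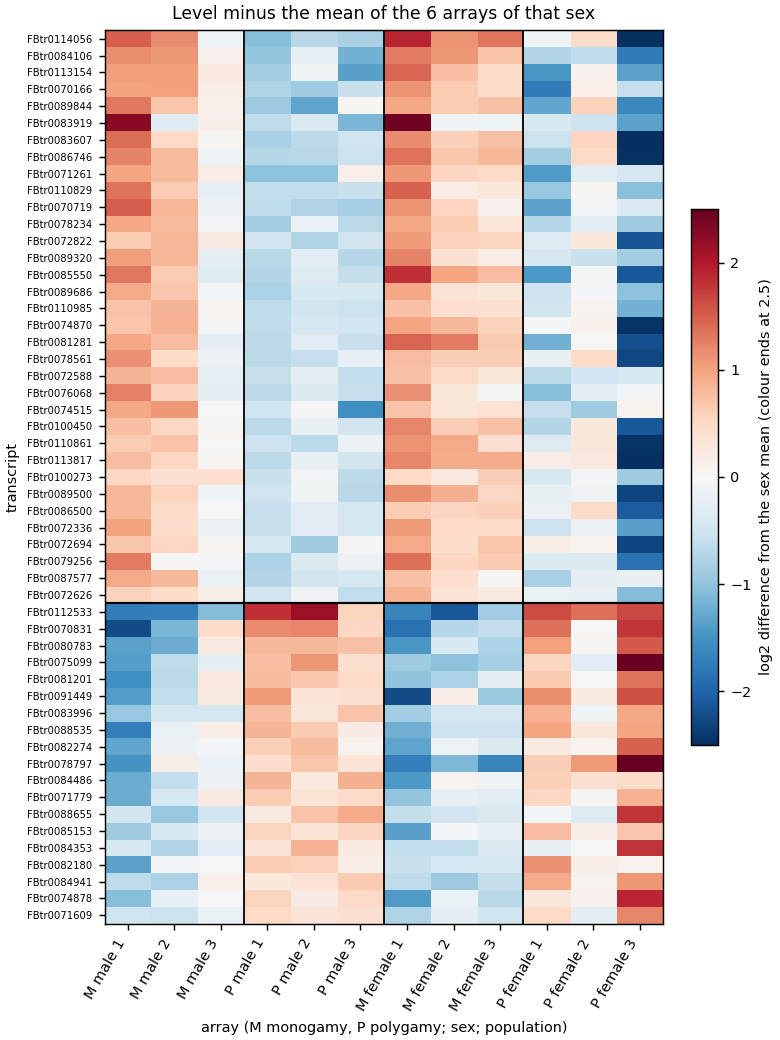
Log2 level of each of the 53 transcripts on each array minus its mean over the 6 arrays of that sex, red above and blue below, with the 34 higher under monogamy above the horizontal line and the 19 lower below it, each ordered by the smaller of the differences in the 2 sexes. Colour is deepest on monogamy male 1, monogamy female 1 and polygamy female 3, and pale on monogamy male 3 and polygamy female 2.

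Within groups, the 53 varied more than other transcripts under monogamy and less in polygamy males. The median SD over the 3 arrays was 0.578 in monogamy males, against 0.379 over all transcripts, and 0.336 in monogamy females, against 0.237. It was 0.249 in polygamy males, against 0.311, and 0.723 in polygamy females, against 0.678. These values describe the arrays and have no test, since the separation the rule asks for restricts them.

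Male and female arrays of 1 population deviated from their group means in the same direction for 49 of the 53 transcripts in monogamy population 1, 25 in monogamy population 2 and 49 in monogamy population 3. In the polygamy populations 1, 2 and 3 the numbers were 29, 30 and 22. Over all transcripts the arrays of a population deviated in the same direction for 74.2%, 48.3% and 66.7% in monogamy populations 1, 2 and 3 and for 56.6%, 50.3% and 38.6% in the polygamy populations. Because the rule used these values in both sexes, it restricts this comparison, which was not tested. Monogamy populations 1 and 3 lay on opposite sides: among the 34, the median deviation was 0.404 in males and 0.337 in females of population 1, and -0.576 and -0.218 in population 3.

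Most of the 53 lay below the median level of all transcripts, with 7 of the 34 and 4 of the 19 above it. The mean log2 level over the 12 arrays had a median of 9.23 among the 34 and 8.59 among the 19, against 9.91 over all transcripts, and ran from 5.74 to 11.20 and from 5.95 to 12.04. With all transcripts divided by level into 4 classes of equal size, the lowest held 13 of the 53, the next 29, the third 10 and the highest 1, so that the 53 made up 0.313%, 0.697%, 0.240% and 0.024% of these classes. The 1 in the highest class was FBtr0085153, named after its values were seen, which was lower under monogamy by 0.95 in males and 1.06 in females. At least 1 value under its array's 5th percentile occurred in 1 of the 34 and 2 of the 19. The same share over all transcripts is not given here, so this count is no result about the 53. The part of level in the choice of the 53 was not tested.

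The sex difference was not used by the rule and was tested (limma, male minus female averaged over the regimes). A transcript passed when its p, adjusted over all 16637, was under 0.05 and the sexes differed by 1 or more on the log2 scale. Of the 53, males had the higher level for 3 (5.66%), females for 14 (26.4%), and 36 did not pass. Over all transcripts 2728 (16.4%) were higher in males and 4334 (26.1%) in females, 42.4% in all against 32.1% of the 53. The share higher in females is near that of all transcripts and is no result about the 53. The share higher in males was lower than that of all transcripts, and this difference was not tested. The rule asks for a regime difference of at least 0.8 in each sex and may restrict this share.

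Sex differences of the 53 were moderate. They ran from -1.89 to 1.13 among the 34 (median -0.03) and from -1.90 to 1.57 among the 19 (median -0.40), with a median of -0.34 over all transcripts. A sex difference of at least 2 in size was found for 3450 transcripts (20.7%) and for 0 of the 53. The rule asks for a regime difference of at least 0.8 within each sex. How far that limits the size of the sex difference was not tested. Direction under monogamy and sex class were spread alike: 9 of the 34 (26.5%) and 5 of the 19 (26.3%) were higher in females, and 2 and 1 were higher in males. No overlap between the 6 males and the 6 females was found for 2 of the 53, against 5650 (34.0%) of all transcripts. They were FBtr0100273 and FBtr0071609, both higher in females and both named after their values were seen. The rule asks for regime differences within each sex, which widen the range of each sex and so restrict this count.

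**Figure D5:**
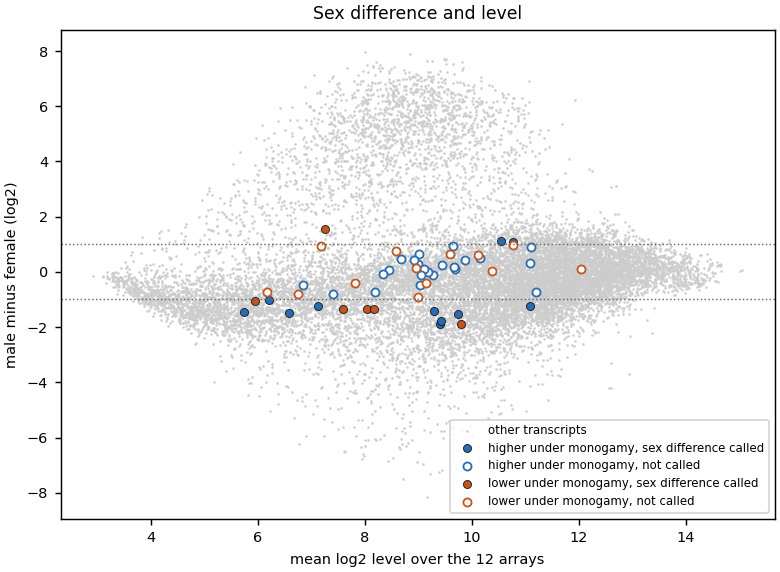
Male minus female difference (log2, averaged over the regimes) against the mean log2 level over the 12 arrays, with all other transcripts in grey, the 34 in blue and the 19 in orange, filled where the sex difference passed the test and open where it did not. Dotted lines mark 1 and -1, and all of the 53 lie between -1.90 and 1.57.

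FBtr0089844 was higher in females and higher under monogamy. Males stood at 9.78, 9.15 and 8.58 under monogamy and at 7.55, 7.14 and 8.51 under polygamy, a difference of 1.44. Females stood at 11.31, 10.99 and 11.08 under monogamy and at 9.04, 10.92 and 8.73 under polygamy, a difference of 1.56. The regimes were separated by 0.07 in males and 0.06 in females, because polygamy male 3 and polygamy female 2 lay close to the monogamy values. The sex difference of -1.89 (SE 0.40, limma, adjusted p = 0.00231) set a male level of 8.45 ± 0.98 against a female level of 10.35 ± 1.14 (SD, n = 6 each). The call was lost in 1 of 23 alternatives, the polygamy arrays alone (limma, adjusted p = 0.0944). Here and below, the alternatives include the adjusted p alone, which drops the required size and so cannot lose a call. They also include the floor, which leaves the levels of a transcript unchanged where none lies under it.

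FBtr0083607 had the same combination. Males stood at 10.37, 9.48 and 9.05 under monogamy and at 8.18, 8.33 and 8.48 under polygamy, a difference of 1.31. Females stood at 11.69, 11.11 and 11.24 under monogamy and at 9.97, 11.05 and 7.99 under polygamy, a difference of 1.67. The male groups were 0.57 apart and the female groups 0.06, with polygamy female 2 at the edge, and without polygamy female 3 the female difference was 0.84. Its sex difference was -1.52 (SE 0.45, limma, adjusted p = 0.0149). The call was lost in 2 of 23 alternatives, quantile normalization by sex and the polygamy arrays alone (limma, adjusted p = 0.0501 and 0.226).

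Monogamy male 1 was the highest monogamy male for all 9 of the female-biased transcripts among the 34 and for 18 of the other 25, against 47.1% of all transcripts. The share among all female-biased transcripts is not given here, and a link between this array and sex class was not tested. The median male regime difference of the 9 was 1.11, and 0.823 without that array, and that of the 25 was 1.06 and 0.842. Of the 9, 5 kept 0.8 without it, and of the 25, 13 did.

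FBtr0081281 was higher in males and higher under monogamy. Males stood at 12.09, 11.87 and 10.89 under monogamy and at 10.45, 10.83 and 10.53 under polygamy, a difference of 1.01. Without monogamy male 1 that difference was 0.777, below the required 0.8. Females stood at 11.44, 11.27 and 10.64 under monogamy and at 8.78, 9.98 and 7.78 under polygamy, a difference of 2.27. Monogamy male 3 lay 0.06 above the nearest polygamy male, and the female groups were 0.66 apart. The sex difference was 1.13 (SE 0.36, limma, adjusted p = 0.0219), with 0.50 within monogamy and 1.76 within polygamy, and it fell below the required size without polygamy female 3 (0.86). The call was lost in 6 of 23 alternatives, among them those without monogamy male 1, monogamy male 2 or monogamy female 3 (limma, adjusted p = 0.0501, 0.0515 and 0.0558).

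FBtr0110861 was the other transcript of this combination. Males stood at 11.93, 12.01 and 11.31 under monogamy and at 10.78, 10.64 and 11.16 under polygamy, a difference of 0.89. That difference was 0.798, 0.758 and 0.778 without monogamy male 1, monogamy male 2 and polygamy male 2, below the required 0.8. Females stood at 11.35, 11.18 and 10.64 under monogamy and at 9.91, 10.51 and 7.79 under polygamy, a difference of 1.65, or 0.85 without polygamy female 3. Gaps were 0.14 in males and 0.13 in females. Its sex difference of 1.07 (SE 0.41, limma, adjusted p = 0.0453) was not called with the population as a fixed block (limma, adjusted p = 0.0658), and without polygamy female 3 it was 0.67. The call was lost in 13 of 23 alternatives, 9 of them with 1 array left out.

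FBtr0075099 was higher in females and lower under monogamy. Males stood at 6.0, 6.75 and 7.14 under monogamy and at 8.13, 8.49 and 7.78 under polygamy, a difference of -1.50. Females stood at 7.82, 7.70 and 7.89 under monogamy and at 9.25, 8.46 and 11.18 under polygamy, a difference of -1.83, or -1.05 without polygamy female 3. Its monogamy females lay close together (SD 0.10, n = 3), and the regimes were 0.65 apart in males and 0.57 in females. The sex difference was -1.34 (SE 0.41, limma, adjusted p = 0.0179), and -0.95 without polygamy female 3, where it no longer reached the required size. That was 1 of the 2 alternatives, of 23, in which the call was lost. The other was the polygamy arrays alone (limma, adjusted p = 0.162).

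FBtr0078797 was higher in females and lower under monogamy, with the larger regime difference in females. Males stood at 3.95, 5.58 and 5.29 under monogamy and at 5.86, 6.12 and 5.77 under polygamy, a difference of -0.98. Females stood at 4.76, 5.34 and 4.82 under monogamy and at 7.08, 7.54 and 9.25 under polygamy, a difference of -2.98, with 1.74 between the groups. The male regime difference minus the female one was 2.00 (SE 0.79) and did not reach an adjusted p under 0.05 (limma). Within monogamy the male minus female difference was -0.04, and within polygamy it was -2.04. Levels under monogamy were near the low end of the arrays, with 5th percentiles of 4.37, 4.34 and 4.43 in monogamy females 1 to 3. The value of 3.95 lay below the 5th percentile of monogamy male 1, and without that array the male difference was -0.48. Its averaged sex difference of -1.04 (SE 0.39, limma, adjusted p = 0.0438) was lost in 12 of 22 alternatives, among them 9 of the 12 in which 1 array was left out.

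FBtr0082180 was the 1 transcript higher in males and lower under monogamy. Males stood at 6.72, 8.01 and 8.05 under monogamy and at 8.68, 8.63 and 8.20 under polygamy, a difference of -0.91. Females stood at 5.93, 6.06 and 6.06 under monogamy and at 7.63, 6.63 and 6.57 under polygamy, a difference of -0.93. The sex difference was 1.58 within monogamy and 1.56 within polygamy, so that the regime and sex differences added. The averaged value of 1.57 (SE 0.28, limma, adjusted p = 0.000816) passed in all 22 alternatives that held the transcript. The adjusted p alone was among these and could not lose the call. The regime difference of FBtr0082180 in males was -0.47 without monogamy male 1. In females it was -0.59 without polygamy female 1, -0.53 after cyclic loess by sex, and -0.49 or -0.45 when quantile normalized over the 12 arrays or by sex.

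The regime difference was not shown to differ between males and females for any of the 53 or for any other transcript (limma, 0 of 16637 interactions at an adjusted p under 0.05, and 593 at an unadjusted p under 0.05). The rule itself asks for 1 direction in both sexes and so restricts this comparison among the 53.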

How the data were processed

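Per the submitters' processing notes, the authors used RMA, and the deposited table gives a log2 value for each transcript on each array. Neither the RMA version nor the annotation release, nor which arrays were normalized jointly, was found in the labels. All 12 columns were matched to a sample and used as deposited, with no filter. Arrays have no read depth, and their number limits the precision. Scan and hybridisation batches are not given in the labels or the table.

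The 53 transcripts and the gene lists were chosen with earlier results of these data known. Up to 2 transcripts in each direction and sex class were named, by the smaller of their regime differences in both sexes.

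Sex was tested with limma 3.58.1 (R 4.3.3, lmFit and eBayes) on 12 arrays in 4 groups, with no block, and p-values were adjusted over the whole table by Benjamini and Hochberg's method. The fit was tested on simulated data.

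The subject label is common to the male and the female array of a population and pairs them. Correlations of their deviations from the group means, over all transcripts, were 0.53, -0.07 and 0.40 for monogamy populations 1 to 3 and 0.086, 0.074 and -0.18 for polygamy populations 1 to 3. Fits with the population as a fixed or random block (statmod 1.5.0, consensus correlation 0.0787) were alternatives, with other normalizations, a floor, a filter on dim transcripts, other thresholds and each array left out. Leaving out 2 arrays together, and counting which of the 53 kept their size, were added after the data were seen.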

Additional observations from a re-analysis of the deposited data

How the results depend on the processing

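Quantile normalization gave 57 transcripts in place of 53 when run over the 12 arrays and 64 when run by sex, cyclic loess by sex gave 59 and centring on the median gave 53, and these sets shared 42, 43, 42 and 44 transcripts with the 53. The split of 34 higher and 19 lower became 44 and 13, 50 and 14, 42 and 17, and 36 and 17. With a floor at each array's 5th percentile the 53 were the same, and without dim transcripts 40 were left, because 13 were not tested. The size asked for moved the number to 120 at 0.6, 27 at 1 and 326 with none. Leaving out 1 array gave 31 (without monogamy male 1) to 933 (without monogamy male 3), and leaving out both arrays of monogamy population 1 gave 31, or 27 when polygamy female 3 was left out as well. Of the 53, 17 passed in sex (limma). The number was 10 without dim transcripts, where 40 were tested, and 7 in the polygamy arrays alone, where 4548 of all transcripts passed in place of 7062, in a fit of 6 arrays that holds polygamy female 3. It was 23 by adjusted p alone and 13 to 19 with 1 array left out. With the population as a replicate block it was 16 (fixed) and 17 (random), with 7088 and 7148 of all transcripts. The fixed block changed the call of FBtr0110861 among the named transcripts and no other. The regime differences of the 11 named transcripts kept their sign in all alternatives run. With 1 array left out the rule fixed this in advance, since separated groups stay on their sides.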
